A study of Mus musculus with 24 samples.

Results

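The 8 mouse guanylate-binding protein genes Gbp2, Gbp3, Gbp4, Gbp5, Gbp6, Gbp7, Gbp8 and Gbp9 were followed across all 24 RNA-seq libraries of bone marrow-derived macrophages (BMDMs). They were taken by symbol, as a family picked with earlier results of these data known, and are 8 of the 52636 genes in each deposited count file. All 8 passed the filter on low counts and were among the 14681 genes tested. The libraries fell into 8 groups of 3, made of 4 genotypes, each after 8 h of R837 and untreated. R837, also called imiquimod, stimulates Toll-like receptor 7. The genotypes were TBK1-cKD ∆IKKe, TBK1-cKD ∆control, TBK1-WT ∆IKKe and TBK1-WT ∆control. By the design text, cKD is a conditional knockout of the kinase TBK1 and ∆IKKe a knockout of the related kinase IKKe, encoded by Ikbke. Neither the Cre driver nor the exons removed could be taken from the labels. Every record, untreated or not, carries one protocol text that speaks of wild-type C57BL/6N marrow, M-CSF culture and R837, with BMDMs of 3 individual mice as the replicates. The labels record no link between a library of one group and the mouse behind a library of another.

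Guanylate-binding proteins are large GTPases of the dynamin superfamily that interferons induce strongly in macrophages and many other cells. They assemble on bacteria and on the vacuoles of intracellular pathogens, together with the smaller immunity-related GTPases (IRGs), and depend there on the proteins that conjugate ATG8 family members to membranes. In mouse macrophages they are best known for opening the way to caspase-11 and to inflammasomes, after which gasdermin D forms pores in the plasma membrane.

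Some facts of the libraries touch every value below. Library depth, as summed gene counts, lay between 19.7 and 41.3 M, lowest in R837 TBK1-cKD ∆control replicate 2. That library also had the fewest genes with a count, 14226, against 18427 in untreated TBK1-WT ∆IKKe replicate 2 at a depth of 20.3 M. A nuclear RNA level, the mean of Malat1, Neat1 and Xist, split the libraries into 14 at 8.94 to 9.46 log2 CPM (CPM being counts scaled to a common library size by TMM) and 10 at 5.25 to 5.64. The high set held all 12 untreated libraries and 2 R837 libraries, TBK1-WT ∆control replicate 1 and, of the libraries labelled TBK1-cKD ∆IKKe, replicate 3. Untreated Tbk1 RNA was 6.48 ± 0.02 log2 CPM in the libraries labelled TBK1-cKD ∆IKKe and 6.22 ± 0.03 in TBK1-cKD ∆control, against 6.67 ± 0.03 in TBK1-WT ∆control (SD, n = 3 each). After R837 Tbk1 under the first label was 6.85, 6.86 and 7.09 log2 CPM. It was 6.69, 6.55 and 6.75 in TBK1-cKD ∆control and 7.21, 6.89 and 6.95 in TBK1-WT ∆control, which the first label overlapped. Within each nuclear RNA level, Tbk1 under the first label lay below TBK1-WT ∆control. It was 6.85 and 6.86 against 6.89 and 6.95 at the low level, and 7.09 against 7.21 at the high, with 1 library each. Untreated Ikbke RNA was 5.13 ± 0.03 in TBK1-WT ∆IKKe. In untreated cells it went against the label TBK1-cKD ∆IKKe. It was 6.31 ± 0.04 log2 CPM under that label, against 5.90 ± 0.01 in TBK1-WT ∆control (SD, n = 3 each). After R837 the 3 libraries under that label had 6.28, 6.37 and 8.02. R837 TBK1-WT ∆IKKe had 6.27, 6.14 and 6.31, and R837 TBK1-WT ∆control 8.66, 7.78 and 7.86. After R837 only replicate 3 under the label lay within the TBK1-WT ∆control range. It is 1 of the 2 R837 libraries of high nuclear RNA level, and the other, TBK1-WT ∆control replicate 1, had 8.66. Its Ikbke value thus cannot be told apart from that level. The group with this label is therefore called the libraries labelled TBK1-cKD ∆IKKe. All 8 macrophage markers examined were tested, with summed levels of 16000 to 32900 CPM. The summed markers of dendritic cells, neutrophils and B cells reached at most 2.61, 4.58 and 0.648 CPM, and those of T and NK cells 18.5. The T and NK sum was highest, at 15.9 to 18.5 CPM, in the untreated libraries labelled TBK1-cKD ∆IKKe, against 9.19 to 10.1 in untreated TBK1-WT ∆control. Cd4 made up nearly all of it, with 14.6 to 17.3 CPM in those libraries, against 8.86 to 9.56 in untreated TBK1-WT ∆control, and the other 7 genes of the list summed to 1.17 to 1.35 CPM, against 0.331 to 0.703. No marker of these lists was at 0 in every library, but Cd3e and Cd3d, which define T cells, never exceeded 1 count. In bulk RNA, fewer cells that express a gene and less RNA per cell cannot be told apart.

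The 8 genes lie in a pair of clusters on GRCm38. Gbp5, Gbp7, Gbp3 and Gbp2 stand in that order on the plus strand of chromosome 3, within the 175.1 kb from 142493978 to 142669041. Gbp8, Gbp9, Gbp4 and Gbp6 stand on the minus strand of chromosome 5, within the 332.3 kb from 105014150 to 105346472. Each cluster holds 6 genes named Gbp in the GENCODE M21 annotation. The reads were 50 bases long and copies resemble each other, so the share of each gene's exonic 50-base windows that also occur in another gene was computed. It was 1.44% for Gbp5, 2.03% for Gbp2, 3.75% for Gbp3, 7.78% for Gbp4, 8.05% for Gbp9, 12.7% for Gbp7 and 18.1% for Gbp8. For Gbp6 it was 70.7%, shared above all with the overlapping annotation Gm43302 (65.0%) and with Gbp10 (45.9%). Gm43302 was listed at 0 in all 24 libraries, as was Gm43802, a processed pseudogene inside Gbp7. Gbp6 values are therefore uncertain, and those of Gbp8 and Gbp7 less so. Exons of Gbp4, Gbp8 and Gbp9 also overlap one another, by at most 1.77% of their bases. These shares refer to all exons of the GENCODE M21 annotation, whereas the gene widths deposited with the RPKM values are shorter than those exons for 6 of the 8 genes, such as 2604 against 5954 bases for Gbp6 and 3055 against 6637 for Gbp5. The shares in the exons the authors counted may therefore differ, and levels per length depend on those widths.

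RefSeq promoter windows of GRCm38.p6, 250 bases before to 50 after a start site, were at hand for Gbp2, Gbp3, Gbp5 and Gbp7. They are shown because these are the 4 genes of the chromosome 3 cluster, which all rose after R837 in all 4 genotypes. Capitals mark matches on either strand to an interferon-stimulated response element (ISRE, GAAA and GAAA with NN between them), a gamma-activated site (GAS, TTC and GAA with NNN between them) or a kappaB motif (GGGA and TTCC with NN between them), N being any base. The windows lie on the plus strand at chr3:142620413-142620712 (Gbp2), chr3:142559794-142560093 (Gbp3), chr3:142496684-142496983 (Gbp5) and chr3:142530086-142530385 (Gbp7).
Gbp2: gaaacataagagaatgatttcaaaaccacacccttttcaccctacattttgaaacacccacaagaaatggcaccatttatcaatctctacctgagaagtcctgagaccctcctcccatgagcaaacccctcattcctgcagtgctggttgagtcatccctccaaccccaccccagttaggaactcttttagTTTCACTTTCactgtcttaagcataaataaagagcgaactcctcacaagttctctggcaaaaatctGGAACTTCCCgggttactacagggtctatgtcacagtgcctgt
Gbp3: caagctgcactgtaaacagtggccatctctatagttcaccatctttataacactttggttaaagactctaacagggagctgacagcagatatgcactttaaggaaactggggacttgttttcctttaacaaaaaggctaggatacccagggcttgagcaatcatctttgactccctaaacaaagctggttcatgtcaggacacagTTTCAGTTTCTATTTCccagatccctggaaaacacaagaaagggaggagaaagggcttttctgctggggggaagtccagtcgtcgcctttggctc
Gbp5: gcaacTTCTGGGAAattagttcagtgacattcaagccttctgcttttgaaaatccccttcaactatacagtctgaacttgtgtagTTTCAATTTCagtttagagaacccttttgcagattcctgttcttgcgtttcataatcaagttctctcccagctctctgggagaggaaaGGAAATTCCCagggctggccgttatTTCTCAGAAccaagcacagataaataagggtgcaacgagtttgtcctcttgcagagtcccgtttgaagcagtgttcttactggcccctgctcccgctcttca
Gbp7: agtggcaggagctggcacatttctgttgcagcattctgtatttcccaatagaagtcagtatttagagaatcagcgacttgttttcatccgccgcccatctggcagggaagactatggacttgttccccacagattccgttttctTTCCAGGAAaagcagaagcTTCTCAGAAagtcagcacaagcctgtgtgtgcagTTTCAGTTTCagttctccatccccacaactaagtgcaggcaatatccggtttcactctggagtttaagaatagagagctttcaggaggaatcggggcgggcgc
An ISRE match stood at -59 to -50 from the start site in Gbp2, at -53 to -44 in Gbp7 and at -165 to -156 in Gbp5, and Gbp3 held 2 overlapping ones at -45 to -36 and -39 to -30. GAS matches stood at -245 to -237 and -52 to -44 in Gbp5 and at -106 to -98 and -87 to -79 in Gbp7. A kappaB match was found at -77 to -68 in Gbp5 and at 7 to 16, after the start site, in Gbp2. A second Gbp3 window, with its start site at 142560356, held none of the 3 motifs. Of 32851 promoter windows of the same length, 3.44% held the ISRE, 8.30% the GAS and 1.47% the kappaB letters.

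The family as a whole was highest after R837 in the libraries labelled TBK1-cKD ∆IKKe. Summed over the 8 genes, the deposited RPKM values (read counts scaled by gene length and library total, used here to compare genes) after R837 were 684, 593 and 539.8 in libraries labelled TBK1-cKD ∆IKKe, 228, 242 and 304 in TBK1-cKD ∆control, 219.7, 205 and 216 in TBK1-WT ∆IKKe, and 188, 196 and 193 in TBK1-WT ∆control. Untreated sums in the same order averaged 72.5 ± 4.81, 15.6 ± 1.92, 29.9 ± 4.93 and 23.4 ± 0.655 RPKM (SD, n = 3 each). Every R837 library thus lay above every untreated library, and the untreated libraries labelled TBK1-cKD ∆IKKe lay above all other untreated ones. Gbp2 dominated the sum after R837, with 64.7 ± 2.90% in the libraries labelled TBK1-cKD ∆IKKe and 68.0 ± 5.18% in TBK1-WT ∆control. Gbp5 and Gbp3 followed after R837, at 13.1% and 14.9% in libraries labelled TBK1-cKD ∆IKKe and 12.5% and 11.2% in TBK1-WT ∆control. Untreated cells had another make-up: in TBK1-WT ∆control Gbp9 held 40.2 ± 0.291% of the sum and Gbp2 30.0 ± 1.11%. In the untreated libraries labelled TBK1-cKD ∆IKKe it was Gbp2 that led, with 48.0 ± 0.662%, and Gbp9 held 18.1 ± 0.670%.

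**Figure D1:**
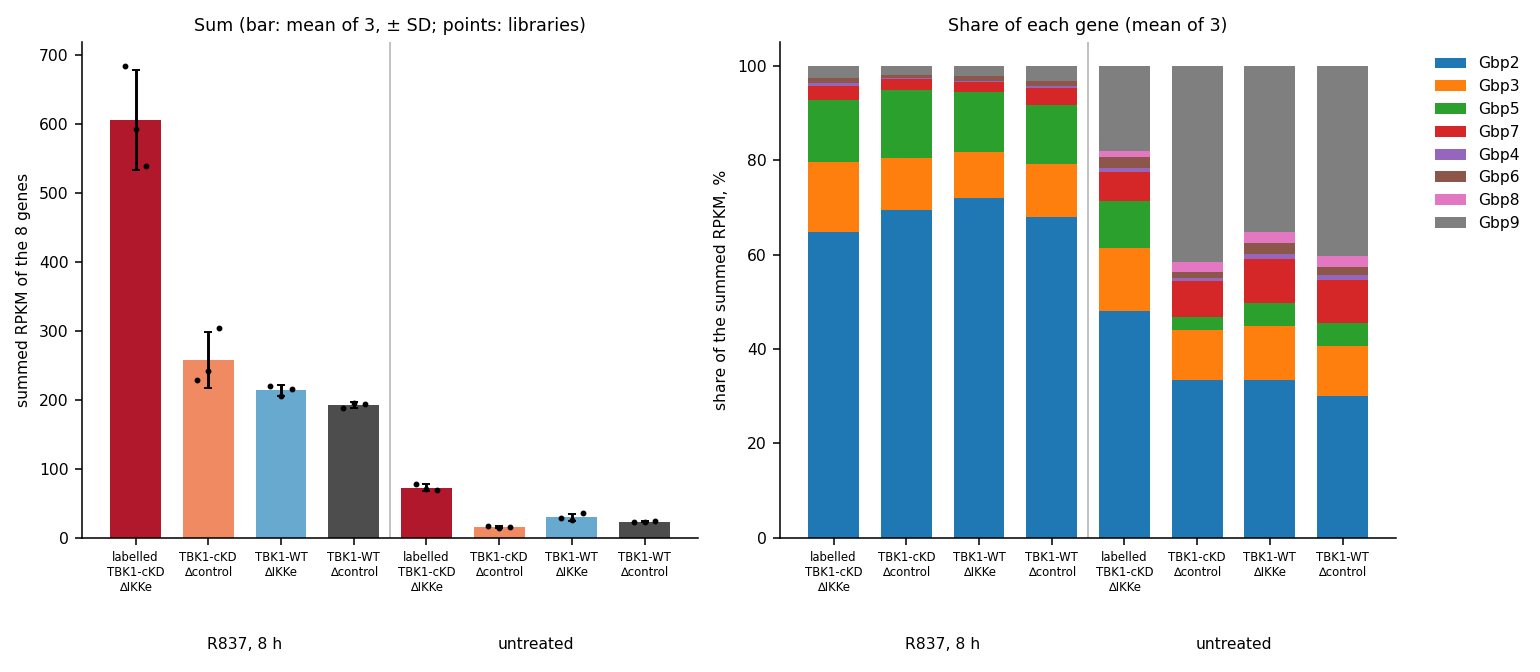
Left, the summed RPKM of the 8 Gbp genes in each group (bars, mean of 3 libraries ± SD; points, libraries), and right, the mean share of each gene in that sum in percent. The R837 libraries labelled TBK1-cKD ∆IKKe averaged 606 RPKM, and Gbp2 (blue) held most of the sum in every R837 group while Gbp9 (grey) was the largest share in 3 of the 4 untreated groups.

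Gbp2, a prenylated member that coats pathogen vacuoles and bacteria in the mouse, held the largest share of summed RPKM after R837, as given above. On the CPM scale, its R837 values were 1542, 1352 and 1087 in libraries labelled TBK1-cKD ∆IKKe, 488, 524 and 620.3 in TBK1-cKD ∆control, 486, 450.2 and 462 in TBK1-WT ∆IKKe, and 335, 414 and 402 in TBK1-WT ∆control. Untreated, Gbp2 had 101, 87.7 and 87.0 CPM in the libraries labelled TBK1-cKD ∆IKKe, 15.1, 12.9 and 12.3 in TBK1-cKD ∆control, 21.1, 23.4 and 31.9 in TBK1-WT ∆IKKe, and 17.8, 16.8 and 18.0 in TBK1-WT ∆control. Ordered by their means, no 2 neighbouring groups of the 8 overlapped in Gbp2. The order ran from R837 libraries labelled TBK1-cKD ∆IKKe through R837 TBK1-cKD ∆control, TBK1-WT ∆IKKe and TBK1-WT ∆control, then untreated libraries labelled TBK1-cKD ∆IKKe, TBK1-WT ∆IKKe and TBK1-WT ∆control, down to untreated TBK1-cKD ∆control.

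Gbp5 is known in mouse macrophages for promoting assembly of the NLRP3 inflammasome. Its R837 levels were 381, 309.9 and 286 CPM in the libraries labelled TBK1-cKD ∆IKKe, 117, 119 and 177 in TBK1-cKD ∆control, 100.2, 95.5 and 103 in TBK1-WT ∆IKKe, and 89.0, 77.9 and 89.3 in TBK1-WT ∆control. Untreated levels were 26.4, 21.2 and 21.9 CPM in the libraries labelled TBK1-cKD ∆IKKe, 1.84, 0.763 and 1.52 in TBK1-cKD ∆control, 3.85, 3.75 and 6.48 in TBK1-WT ∆IKKe, and 2.68, 4.07 and 3.53 in TBK1-WT ∆control. The group order was the same as for Gbp2, with an overlap only between untreated TBK1-WT ∆IKKe and TBK1-WT ∆control. Gbp3, a large GTPase of the same cluster, had 411, 357 and 337 CPM after R837 in the libraries labelled TBK1-cKD ∆IKKe, 89.7, 95.4 and 129 in TBK1-cKD ∆control, 78.6, 75.4 and 78.5 in TBK1-WT ∆IKKe, and 80.3, 73.4 and 74.7 in TBK1-WT ∆control. Its untreated means were 30.9 ± 1.19 CPM in the libraries labelled TBK1-cKD ∆IKKe, 5.13 ± 0.858 in TBK1-cKD ∆control, 10.4 ± 2.03 in TBK1-WT ∆IKKe and 7.58 ± 0.473 in TBK1-WT ∆control (SD, n = 3 each). Gbp3 ranges overlapped only between TBK1-WT ∆IKKe and TBK1-WT ∆control after R837.

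Gbp7, which in the mouse has been tied to assembly of the phagocyte NADPH oxidase, varied widely between replicates after R837. It had 109.8, 107 and 182 CPM in the R837 libraries labelled TBK1-cKD ∆IKKe, 37.7, 27.8 and 59.9 in TBK1-cKD ∆control, 30.5, 26.5 and 36.6 in TBK1-WT ∆IKKe, and 72.4, 28.1 and 33.1 in TBK1-WT ∆control. The 182 and the 72.4 CPM belong to the 2 R837 libraries of high nuclear RNA level. Only the libraries labelled TBK1-cKD ∆IKKe stood apart from the other R837 groups, which overlapped. Untreated Gbp7 averaged 26.4 ± 2.66 CPM in the libraries labelled TBK1-cKD ∆IKKe, 6.98 ± 1.35 in TBK1-cKD ∆control, 15.9 ± 3.86 in TBK1-WT ∆IKKe and 11.9 ± 0.211 in TBK1-WT ∆control (SD, n = 3 each), with no overlap between neighbours once ordered by level.

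Per length, Gbp4, Gbp6 and Gbp8 of chromosome 5 held at most 1.13% each of the summed RPKM in any R837 group. Gbp6, one of the mouse members shown to restrict mycobacteria and Listeria, had 25.4, 21.0 and 24.3 CPM after R837 in the libraries labelled TBK1-cKD ∆IKKe, 4.16, 3.33 and 7.50 in TBK1-cKD ∆control, 5.72, 5.98 and 6.15 in TBK1-WT ∆IKKe, and 7.29, 5.75 and 6.09 in TBK1-WT ∆control. Gbp4, described as a binding partner of IRF7, had 27.9, 18.3 and 21.9 CPM in the R837 libraries labelled TBK1-cKD ∆IKKe, 2.73, 4.66 and 5.07 in TBK1-cKD ∆control, 3.82, 2.56 and 3.87 in TBK1-WT ∆IKKe, and 7.68, 3.75 and 3.26 in TBK1-WT ∆control. For both genes the R837 libraries labelled TBK1-cKD ∆IKKe lay above all others, and the other R837 groups overlapped. In untreated cells, Gbp6 averaged 4.26 ± 0.343 CPM in the libraries labelled TBK1-cKD ∆IKKe, 0.524 ± 0.176 in TBK1-cKD ∆control, 1.77 ± 0.244 in TBK1-WT ∆IKKe and 1.08 ± 0.212 in TBK1-WT ∆control (SD, n = 3 each). Gbp4 averaged 3.36 ± 0.362, 0.371 ± 0.0775, 1.32 ± 0.369 and 0.984 ± 0.318 CPM in these untreated groups in the same order.

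Gbp8 had higher mean levels untreated than after R837 in all 4 genotypes, and Gbp9 in all but the libraries labelled TBK1-cKD ∆IKKe. Gbp8 had 0.681, 0.644 and 0.577 CPM in the R837 libraries labelled TBK1-cKD ∆IKKe, 0.176, 0 and 0.341 in TBK1-cKD ∆control, 0.216, 0 and 0.213 in TBK1-WT ∆IKKe, and 0.661, 0.131 and 0.119 in TBK1-WT ∆control. These R837 values rest on only 57, 15, 12 and 34 reads summed over the 3 libraries of each group in that order, so differences among them are poorly resolved at this depth. Untreated Gbp8 averaged 2.31 ± 0.319 CPM in the libraries labelled TBK1-cKD ∆IKKe, 0.860 ± 0.139 in TBK1-cKD ∆control, 1.77 ± 0.311 in TBK1-WT ∆IKKe and 1.34 ± 0.130 in TBK1-WT ∆control (SD, n = 3 each). Gbp9 had 93.8, 77.6 and 94.2 CPM in the R837 libraries labelled TBK1-cKD ∆IKKe, 24.4, 20.4 and 34.7 in TBK1-cKD ∆control, 24.2, 23.7 and 26.1 in TBK1-WT ∆IKKe, and 35.1, 27.3 and 28.6 in TBK1-WT ∆control. Its untreated levels were 64.3, 61.4 and 57.6 CPM in the libraries labelled TBK1-cKD ∆IKKe, 31.9, 25.0 and 31.4 in TBK1-cKD ∆control, 47.2, 40.8 and 51.6 in TBK1-WT ∆IKKe, and 40.7, 40.8 and 43.0 in TBK1-WT ∆control. Gbp9 was thus highest after R837 in the libraries labelled TBK1-cKD ∆IKKe, whereas in both TBK1-WT genotypes every R837 library lay below every untreated one.

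**Figure D2:**
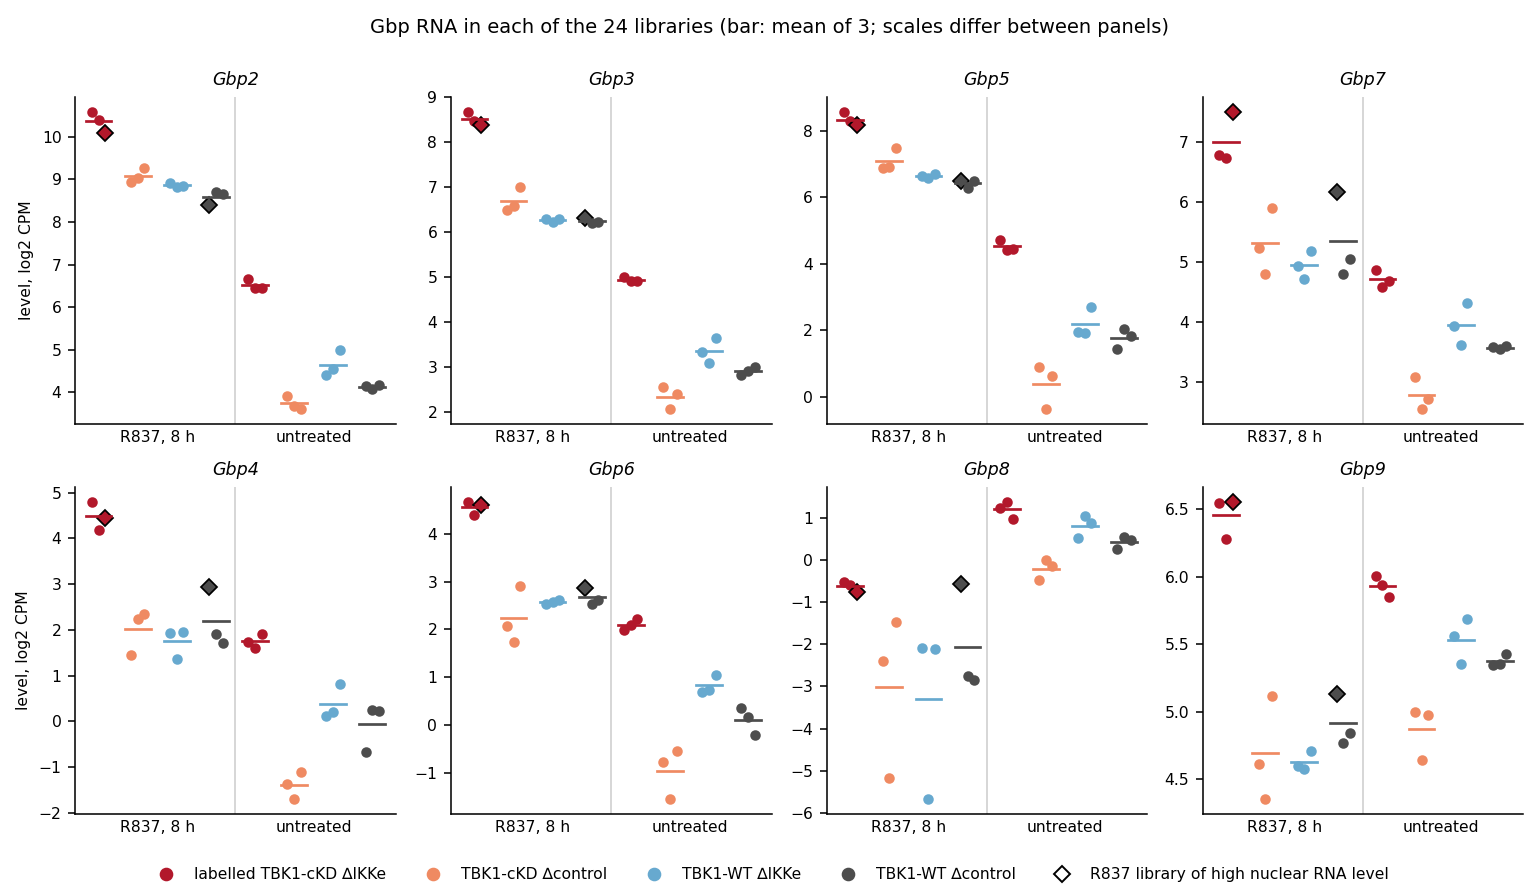
Levels of the 8 Gbp genes in log2 CPM in each of the 24 libraries (points), with the mean of the 3 libraries of a group as a bar, R837 groups left and untreated groups right in every panel. The red points, libraries labelled TBK1-cKD ∆IKKe, lie highest within each treatment for every gene except Gbp8, where TBK1-WT ∆control replicate 1 (0.661 CPM) after R837 and TBK1-WT ∆IKKe replicate 2 (2.05 CPM) untreated fall among them, and the outlined diamonds are the 2 R837 libraries of high nuclear RNA level.

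The first comparison asks how the Gbp genes responded to 8 h of R837 in each genotype. In TBK1-WT ∆control, Gbp2, Gbp3, Gbp4, Gbp5, Gbp6 and Gbp7 rose and Gbp8 and Gbp9 fell. The log2 changes were 4.64 ± 0.23 for Gbp5 (25.0-fold), 4.45 ± 0.16 for Gbp2 (21.9-fold), 3.33 ± 0.14 for Gbp3, 2.54 ± 0.23 for Gbp6, 2.36 ± 0.33 for Gbp4, 1.91 ± 0.31 for Gbp7, -0.45 ± 0.14 for Gbp9 and -1.98 ± 0.48 for Gbp8 (SE of the edgeR quasi-likelihood fit, 3 libraries against 3). The adjusted p values ran from 7.2e-16 for Gbp2 to 0.00999 for Gbp9. The fall of Gbp9 lost its call without TBK1-WT ∆control R837 replicate 2 (-0.38, adjusted p = 0.0515) and when the model held a nuclear RNA term (-0.31, 0.0727). All 8 passed, where 62.6% of all genes tested passed (30.6% higher and 32.0% lower), and the median of the 8 was 2.45 log2 beside -0.05 for all genes. The 3 R837 and the 3 untreated libraries did not overlap for any of the 8, nor for 66.6% of all genes tested. The 4 genes on chromosome 3 all rose, while on chromosome 5 Gbp4 and Gbp6 rose and their neighbours Gbp8 and Gbp9 fell.

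TBK1-WT ∆IKKe cells gave the same directions. Gbp5 rose by 4.40 ± 0.23 log2, Gbp2 by 4.20 ± 0.16, Gbp3 by 2.89 ± 0.14, Gbp6 by 1.74 ± 0.23, Gbp4 by 1.37 ± 0.34 and Gbp7 by 0.97 ± 0.31, and Gbp9 fell by 0.92 ± 0.15 and Gbp8 by 3.54 ± 0.57. All 8 passed, where 70.2% of all genes did (32.4% higher and 37.8% lower), and the adjusted p values reached 0.00878 for Gbp7. In TBK1-cKD ∆control the rises had higher values than in both TBK1-WT genotypes for all 6 induced genes. Gbp5 rose by 6.59 ± 0.27 log2 (96.5-fold), Gbp2 by 5.34 ± 0.16 (40.4-fold), Gbp3 by 4.33 ± 0.15, Gbp4 by 3.45 ± 0.41, Gbp6 by 3.24 ± 0.27 and Gbp7 by 2.57 ± 0.33, and Gbp8 fell by 2.15 ± 0.59 (-1.35, adjusted p = 0.133, in the model that holds a nuclear RNA term). Gbp9 was at -0.15 ± 0.15 log2 and did not pass there (adjusted p = 0.374, edgeR), with overlapping groups. Without R837 replicate 3 of TBK1-cKD ∆control, whose Gbp9 was the highest of its group, Gbp9 fell by 0.39 (adjusted p = 0.0135). The call was 7 of 8 in TBK1-cKD ∆control, beside 69.1% of all genes (31.6% higher and 37.5% lower). In TBK1-WT ∆IKKe and TBK1-cKD ∆control every R837 library was of low and every untreated one of high nuclear RNA level. Their R837 responses thus cannot be told apart from that level.

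The libraries labelled TBK1-cKD ∆IKKe were the exception for Gbp9. There Gbp9 rose by 0.54 ± 0.14 log2 (1.45-fold, adjusted p = 0.00235, edgeR), in 3 of 3 libraries above the untreated ones. Gbp2 rose by 3.85 ± 0.15, Gbp5 by 3.81 ± 0.21, Gbp3 by 3.57 ± 0.14, Gbp4 by 2.75 ± 0.29, Gbp6 by 2.47 ± 0.20 and Gbp7 by 2.33 ± 0.31 log2, and Gbp8 fell by 1.86 ± 0.43. All 8 passed, beside 66.5% of all genes (31.6% higher and 34.8% lower).

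**Figure D3:**
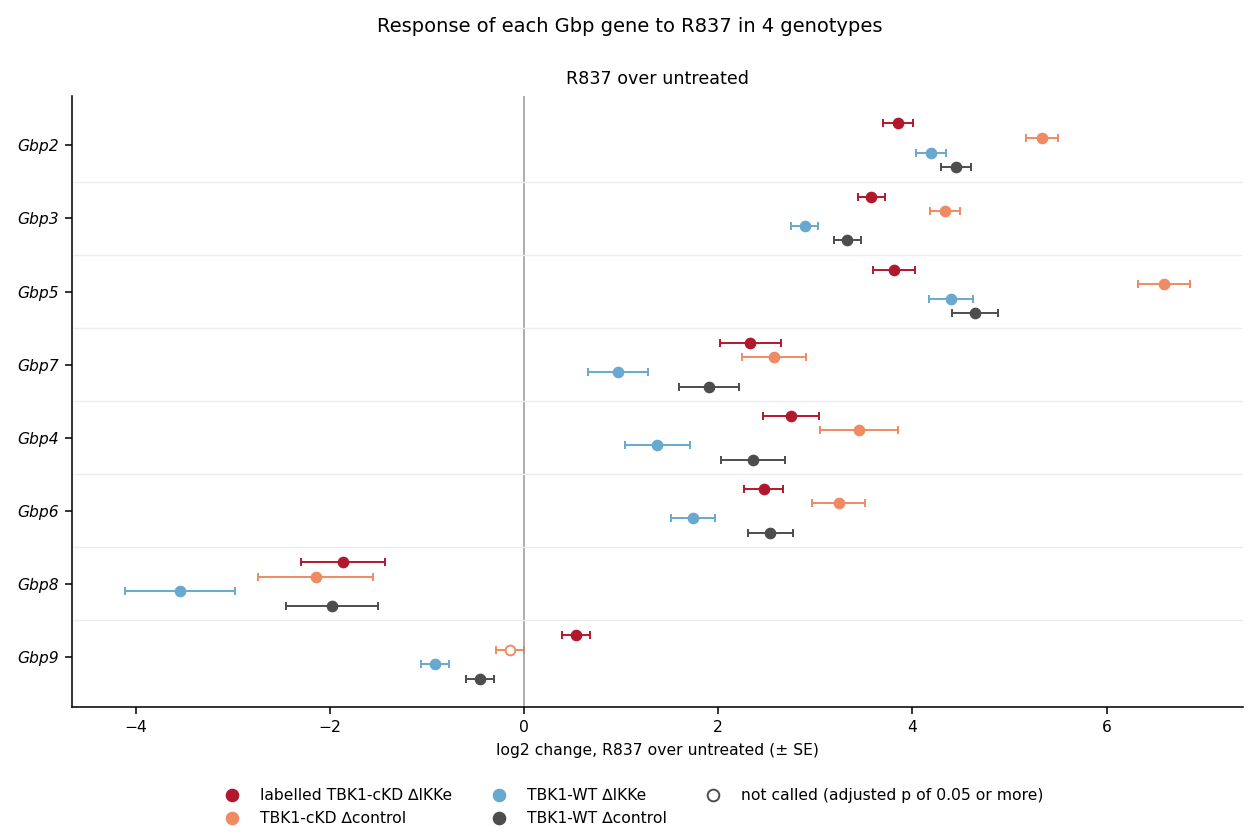
Log2 change of each Gbp gene, R837 over untreated, in the 4 genotypes (points, with SE bars of the edgeR fit; open points did not pass the adjusted p threshold). Gbp5 in TBK1-cKD ∆control shows the largest rise, 6.59, and Gbp9 lies above 0 only in the libraries labelled TBK1-cKD ∆IKKe.

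The difference between these responses was tested directly. The response of TBK1-cKD ∆control exceeded that of TBK1-WT ∆control by 1.95 ± 0.34 log2 for Gbp5 (adjusted p = 0.00718), 1.004 ± 0.19 for Gbp3 (0.0137) and 0.89 ± 0.20 for Gbp2 (0.0366), by edgeR. These 3 of 8 passed, beside 0.879% of all genes (0.674% higher and 0.204% lower), and none was lower. The other differences ran from -0.17 ± 0.76 for Gbp8 to 1.09 ± 0.55 for Gbp4. The calls are sensitive to the libraries used. On the 12 libraries of these groups alone none of the 3 passed, but there only 17 of all genes did, against 129 in the fit on 24 libraries. Without untreated TBK1-cKD ∆control replicate 2 only Gbp5 passed, among 47 of all genes. Gbp2 lost its call without any 1 of 9 of the 12 libraries, with adjusted p values from 0.0541 to 0.113. In the libraries labelled TBK1-cKD ∆IKKe the response of Gbp9 exceeded that in TBK1-WT ∆control by 0.99 ± 0.20 log2 (adjusted p = 0.00123), and that of Gbp2 was lower by -0.60 ± 0.19 (0.0362). These were 2 of 8, beside 17.3% of all genes (7.38% higher and 9.96% lower), and the median of the 8 was 0.18 log2. The Gbp2 difference lost its call without any 1 of 8 libraries, the widest loss being an adjusted p of 0.102 without untreated replicate 1 labelled TBK1-cKD ∆IKKe. Gbp5, at -0.83 ± 0.29, just missed the threshold (adjusted p = 0.0540) and passed under several other settings. For TBK1-WT ∆IKKe no Gbp response passed as different from that of TBK1-WT ∆control by edgeR or DESeq2, where 0.245% of all genes did by edgeR (0.129% higher and 0.116% lower). All 8 differences were below 0, from -1.56 ± 0.80 for Gbp8 to -0.25 ± 0.31 for Gbp5, and 4 had an unadjusted p under 0.05, as did 6.87% of all genes. These 3 comparisons share the libraries of TBK1-WT ∆control. Its R837 libraries hold both nuclear RNA levels, and those of TBK1-WT ∆IKKe and TBK1-cKD ∆control only the low one. The differences for these 2 genotypes therefore also hold that difference in level.

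The next comparison asks what the genotypes did to the family before any stimulus. In the untreated libraries labelled TBK1-cKD ∆IKKe, 7 of the 8 genes were higher than in TBK1-WT ∆control, beside 13.6% of all genes called, 8.52% higher and 5.10% lower. Gbp5 was higher by 2.76 ± 0.23 log2 (6.79-fold, adjusted p = 1.05e-08), Gbp2 by 2.39 ± 0.15 (5.24-fold, 7.71e-11), Gbp3 by 2.03 ± 0.14, Gbp6 by 1.95 ± 0.24, Gbp4 by 1.80 ± 0.34, Gbp7 by 1.15 ± 0.31 and Gbp9 by 0.56 ± 0.14. Gbp8 was at 0.79 ± 0.39 and did not pass (adjusted p = 0.234), although its 3 libraries lay above those of TBK1-WT ∆control. On the 6 libraries compared alone it passed (adjusted p = 0.000671), where 5461 of all genes passed in place of 2000. The libraries labelled TBK1-cKD ∆IKKe lay wholly above TBK1-WT ∆control for all 8, as they did for 25.0% of all genes, and the median was 1.87 log2, beside 0.00 for all genes. Cd4 was higher in these libraries too, as given above, while Cd3e and Cd3d had at most 1 count. The call of Gbp7 was lost without any 1 of 3 libraries, untreated replicate 1 of that group (adjusted p = 0.0604) or untreated TBK1-WT ∆control replicate 1 (0.0523) or 2 (0.0547).

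Untreated TBK1-cKD ∆control moved the other way. All 8 genes had lower values than TBK1-WT ∆control, and the 3 libraries of one group lay wholly below those of the other for each, as for 17.3% of all genes tested. Only Gbp5, at -1.26 ± 0.28 log2 (adjusted p = 0.00852), and Gbp3, at -0.55 ± 0.15 (0.0325), passed by edgeR, beside 5.05% of all genes called, 2.40% higher and 2.65% lower. The remaining values were -1.37 ± 0.46 for Gbp4, -1.05 ± 0.31 for Gbp6, -0.76 ± 0.33 for Gbp7, -0.65 ± 0.42 for Gbp8, -0.50 ± 0.14 for Gbp9 and -0.38 ± 0.15 for Gbp2, and the median of the 8 was -0.71 log2. The count of calls depended on the fit. It was 8 on the 6 libraries compared, 5 with DESeq2, and 0 without untreated replicate 2 of TBK1-cKD ∆control or of TBK1-WT ∆control. The count over all genes, 742 in the fit on 24 libraries, moved too, to 2835 on the 6 libraries, 1049 with DESeq2, and 393 and 522 without these replicates. Gbp3 lost its call without any 1 of 5 libraries, all but untreated TBK1-cKD ∆control replicate 1. Neutrophil marker sums were lower in both TBK1-cKD groups in untreated cells, at 0.371 to 0.763 CPM in TBK1-cKD ∆control and 0.446 to 0.488 in libraries labelled TBK1-cKD ∆IKKe, against 3.26 to 4.58 in TBK1-WT ∆control. The part of these markers in the Gbp values was not tested. Untreated TBK1-WT ∆IKKe had no Gbp gene called by edgeR or DESeq2, and 0% of all genes tested were called. Its 8 values were all above 0, from 0.17 ± 0.14 for Gbp9 to 0.69 ± 0.26 for Gbp6, and 3 of the 8 had an unadjusted p under 0.05, as did 2.87% of all genes.

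After R837 most Gbp genes were again higher under the label TBK1-cKD ∆IKKe. Against TBK1-WT ∆control, Gbp3 was higher by 2.27 ± 0.13 log2 (4.83-fold, adjusted p = 1.69e-11), Gbp4 by 2.19 ± 0.28, Gbp5 by 1.93 ± 0.20, Gbp6 by 1.88 ± 0.20, Gbp2 by 1.79 ± 0.14 (3.46-fold, 1.57e-09), Gbp7 by 1.57 ± 0.30 and Gbp9 by 1.54 ± 0.15. That made 7 of 8, beside 32.2% of all genes called and 16.7% called higher, with a median of 1.84 log2 beside -0.01 for all genes. Gbp8, at 0.90 ± 0.53, did not pass (adjusted p = 0.219), and its groups overlapped through TBK1-WT ∆control replicate 1. Without that library Gbp8 was higher by 2.28 (adjusted p = 0.00575). Against TBK1-WT ∆IKKe all 8 were higher, from 1.51 ± 0.14 for Gbp2 to 2.73 ± 0.29 for Gbp4, beside 30.6% of all genes called and 16.5% called higher. Against TBK1-cKD ∆control all 8 were higher too, from 1.24 ± 0.19 for Gbp5 to 2.47 ± 0.29 for Gbp4, beside 34.5% called and 18.3% called higher. In both comparisons the libraries labelled TBK1-cKD ∆IKKe lay wholly above the others for all 8, as they did for 21.8% of all genes against TBK1-WT ∆IKKe and 19.9% against TBK1-cKD ∆control. In these R837 libraries the marker sums of T and NK cells and of dendritic cells were higher than in TBK1-WT ∆control. The rest of each list, without its leading gene, was not. The part of these markers in the Gbp values was not tested. The T and NK sum was 5.37 to 7.11 CPM, against 3.43 to 3.84 in R837 TBK1-WT ∆control. Of this Cd4 had 6.55, 5.69 and 5.08 against 2.99, 3.06 and 2.87, and the rest summed to 0.289 to 0.568 against 0.440 to 0.875. The dendritic cell sum was 2.02 to 2.61 CPM, against 1.10 to 1.54. Most of it was Ccr7, with 2.35, 2.34 and 1.65 against 0.783, 1.28 and 0.756, and the rest summed to 0.237 to 0.375 against 0.263 to 0.478. The call of Gbp8 against TBK1-cKD ∆control (1.72 ± 0.61, adjusted p = 0.0347, edgeR) was lost without any 1 of 5 libraries. Against TBK1-WT ∆IKKe (2.08 ± 0.64, 0.0169) it was lost without TBK1-WT ∆IKKe R837 replicate 2, which had no Gbp8 read. Both calls were lost on the groups compared alone (0.206 and 0.057) and among libraries of low nuclear RNA level (0.129 and 0.0849). With a nuclear RNA term in the model, the call against TBK1-cKD ∆control was lost too (0.0683).

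Fewer Gbp genes were called in the single genotypes after R837. In TBK1-cKD ∆control, Gbp5 was higher by 0.69 ± 0.19 log2 (adjusted p = 0.0267), Gbp2 by 0.50 ± 0.13 (0.0219) and Gbp3 by 0.46 ± 0.13 (0.0265), each with no overlap between the groups (10.2% of all genes lay wholly higher), and the other 5 ranged from -0.82 ± 0.66 for Gbp8 to -0.09 ± 0.30 for Gbp7. The 3 of 8 compare with 8.89% of all genes called, 4.48% higher and 4.41% lower. These calls rest on few libraries. Without TBK1-WT ∆control R837 replicate 1 Gbp2 lost its call (adjusted p = 0.126), and without replicate 3 of that group Gbp3 did (0.0607). Without TBK1-cKD ∆control R837 replicate 3 none of the 3 passed, and Gbp6 (-0.75, adjusted p = 0.0102) and Gbp9 (-0.43, 0.0435) were called lower instead. Without TBK1-WT ∆control R837 replicate 2 only Gbp2 kept its call, and on the 6 libraries alone none did, where 40 of all genes passed in place of 1305. In TBK1-WT ∆IKKe no Gbp gene passed by edgeR or DESeq2, beside 1.85% of all genes (1.14% higher and 0.708% lower), and 1 of the 8 had an unadjusted p under 0.05, as did 13.7% of all genes. The values there ran from -1.17 ± 0.69 for Gbp8 to 0.28 ± 0.13 for Gbp2.

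**Figure D4:**
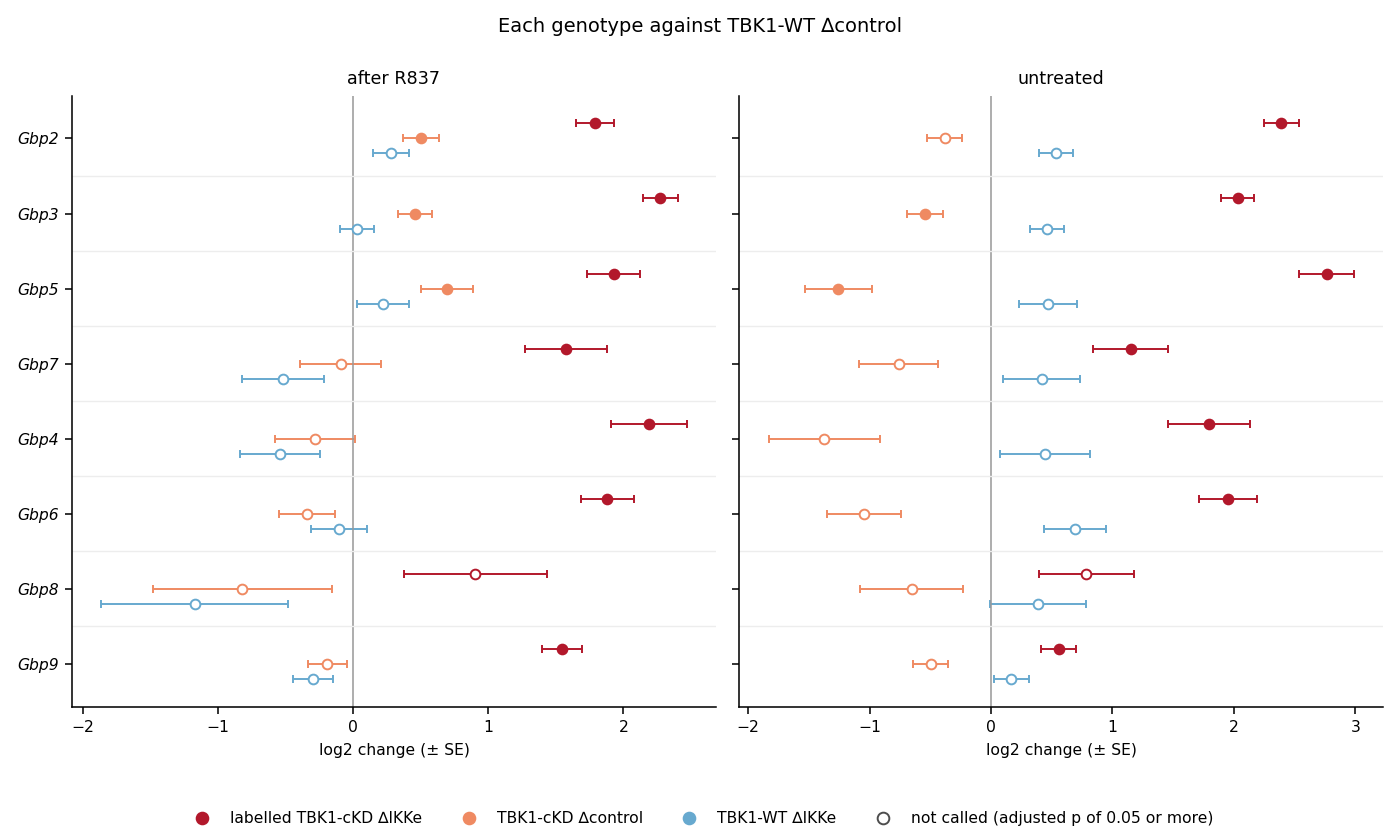
Log2 change of each Gbp gene in 3 genotypes against TBK1-WT ∆control, after R837 (left) and in untreated cells (right), with SE bars of the edgeR fit and open points where the adjusted p threshold was not passed. The red points lie to the right throughout, while untreated TBK1-cKD ∆control lies left of 0 for all 8 genes and TBK1-WT ∆IKKe holds open points only.

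Whether the joint genotype exceeded what the single ones add up to was tested as a TBK1 by IKKe interaction after R837. All 8 Gbp genes had a positive interaction that passed by edgeR, beside 22.2% of all genes called, 13.3% higher and 8.90% lower. It was 3.01 ± 0.42 log2 for Gbp4 (adjusted p = 3.65e-05), 2.90 ± 0.93 for Gbp8 (0.0312), 2.33 ± 0.29 for Gbp6, 2.19 ± 0.43 for Gbp7, 2.04 ± 0.21 for Gbp9 (9.83e-07), 1.79 ± 0.18 for Gbp3 (8.64e-07), 1.02 ± 0.27 for Gbp5 (0.0117) and 1.01 ± 0.19 for Gbp2 (0.000901). The median of the 8 was 2.11 log2, beside 0.04 for all genes. In this fit the chromosome 5 genes and Gbp7 thus had higher values than Gbp3, Gbp5 and Gbp2. For Gbp7 and Gbp8 the place above Gbp3 depended on the libraries and the model. Over the alternatives Gbp7 reached down to 1.33 and Gbp8 to 1.50, while Gbp3 was never below 1.69. Without TBK1-WT ∆control R837 replicate 1, Gbp8 was at 1.50 and no longer passed (adjusted p = 0.347), nor did it without TBK1-cKD ∆control R837 replicate 1 (0.0575) or TBK1-WT ∆IKKe R837 replicate 2 (0.0686). The reading of this term as an interaction rests on the labels. Among the R837 libraries it uses, Ikbke RNA in replicate 3 labelled TBK1-cKD ∆IKKe was 8.02 log2 CPM, within the range of TBK1-WT ∆control. That library is of high nuclear RNA level, as is TBK1-WT ∆control replicate 1, which had 8.66. Replicates 1 and 2 under the label, at 6.28 and 6.37, lay near R837 TBK1-WT ∆IKKe, at 6.27, 6.14 and 6.31. The untreated libraries under that label went against it, as given above.

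Within R837 groups, Gbp7 moved with the nuclear RNA level. That level was set as a term beside the group means, so the term compares libraries within a group. Only R837 TBK1-WT ∆control and the R837 libraries labelled TBK1-cKD ∆IKKe hold both levels. There the high libraries exceeded their low group mates in Gbp7 by 0.99 ± 0.18 log2 (adjusted p = 5.77e-05, edgeR). Gbp2 was lower in the high ones by -0.35 ± 0.10 (0.00702). The other 6 members did not pass, from -0.10 ± 0.15 for Gbp5 to 0.78 ± 0.48 for Gbp8, and 50.6% of all genes did. With the term, the R837 response of Gbp7 was 2.45 log2 in TBK1-WT ∆control and 1.95 in TBK1-WT ∆IKKe, in place of 1.91 and 0.97. In TBK1-WT ∆IKKe and TBK1-cKD ∆control every R837 library was low and every untreated one high. Their R837 responses cannot be told apart from the level, and the 1.95 only carries over the term from the 2 mixed groups. Its interaction was 1.36 with the term and 1.35 without the 2 R837 libraries of high level, in place of 2.19, and it passed in each. The difference of the R837 libraries labelled TBK1-cKD ∆IKKe from TBK1-WT ∆control was also taken within each level. Among libraries of low level, 2 of each of these groups, it ran from 1.61 log2 for Gbp9 to 2.70 for Gbp4 in the members other than Gbp8. The high level holds 1 library of each, so its values have no replicate check of their own, and they ran from 1.34 for Gbp7 to 2.08 for Gbp3. Gbp8 was at -0.19 within the high level and 2.34 within the low level, and passed in neither.

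**Figure D5:**
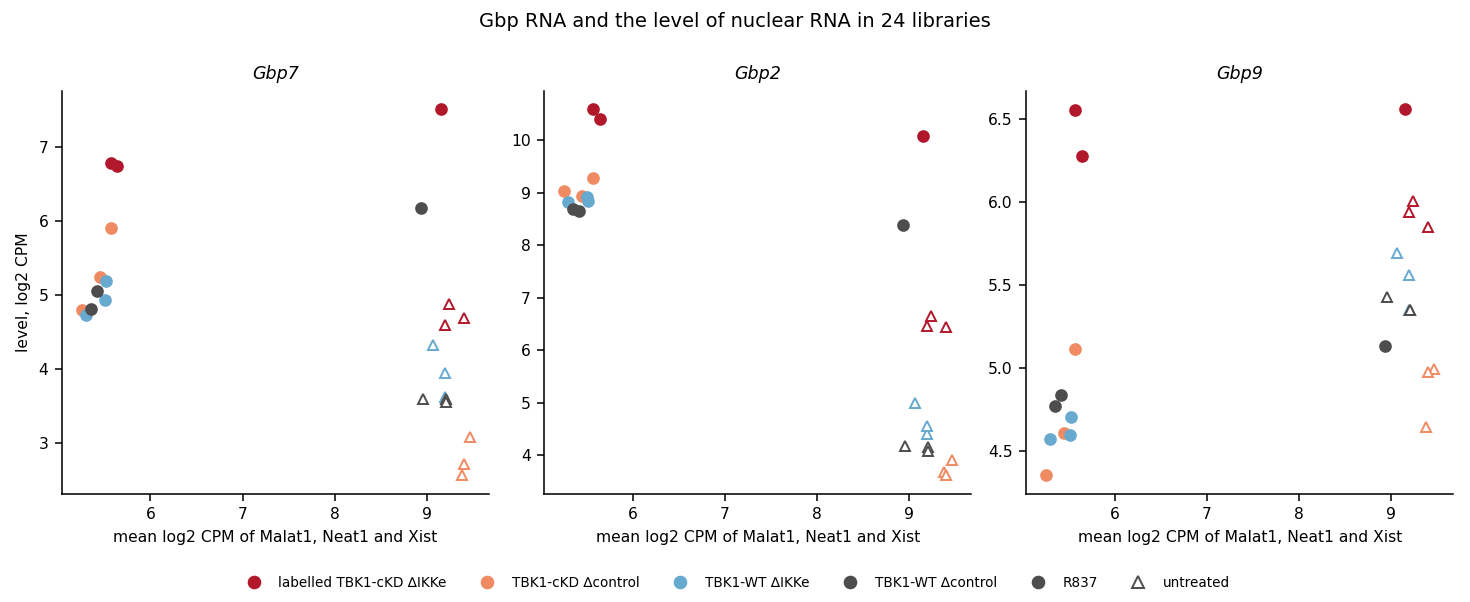
Levels of Gbp7, Gbp2 and Gbp9 in log2 CPM against the mean log2 CPM of Malat1, Neat1 and Xist in the 24 libraries (filled circles, R837; open triangles, untreated). The 2 R837 libraries at the right, at 8.94 and 9.15, lie above their group mates in Gbp7 and below them in Gbp2.

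The members differed among themselves. After each gene was centred on its mean over the 8 group means of log2 CPM, the closest pair was Gbp4 and Gbp6, with a root mean square difference of 0.217 log2, and the next was Gbp2 and Gbp5 at 0.422. Gbp5 and Gbp8 were farthest apart, at 3.95. Gbp7 lay nearest to the mean profile of the 8 (0.200) and Gbp8 farthest (2.48). That mean stands for only some of the members. The number of genes outside the family nearer to it than the member was 3675 for Gbp2, 8364 for Gbp5, 13723 for Gbp8 and 3833 for Gbp9. It was 294 for Gbp3, 1 for Gbp4, 1 for Gbp6 and 0 for Gbp7. Outside the family, the 5 genes closest to that mean profile were Mx1 (0.249), Phf11b (0.340), Hspa1a (0.343), Ifi209 (0.352) and Phf11a (0.363), of which Mx1 is a dynamin-like interferon-induced GTPase and Hspa1a a heat shock protein. This is a likeness over 8 groups, given with no test.

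Of the other Gbp genes, Gbp2b alone passed the filter, and its counts were low. It had 15, 15 and 18 reads in the R837 libraries labelled TBK1-cKD ∆IKKe, 10, 0 and 5 in TBK1-cKD ∆control, 10, 3 and 5 in TBK1-WT ∆IKKe, and 4, 4 and 2 in TBK1-WT ∆control. It was higher in the R837 libraries labelled TBK1-cKD ∆IKKe than in R837 TBK1-WT ∆control by 2.31 ± 0.54 log2 (adjusted p = 0.00195, edgeR). Gbp10 and Gbp11 had 11 and 30 reads summed over the R837 libraries labelled TBK1-cKD ∆IKKe, against 2 and 4 over those of TBK1-WT ∆control. Of the 9 tested genes within 200 kb of the clusters, 1 was higher and 5 were lower after R837 in TBK1-WT ∆control. Of all genes tested, 62.6% were called there (30.6% higher and 32.0% lower), so the share called is no trait of the neighbours. The median of the 9 was -0.70 log2. Lrrc8c, a subunit of a volume-regulated anion channel, was the one that rose (0.24). Abcg3, outside the chromosome 5 cluster, had the deepest fall of the 9, by 3.56 log2.

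The interferon signalling list, the pathway that induces Gbp genes, held 22 genes, of which Ifng and Ifnb1, encoding interferon gamma and beta, were below the filter. Ifng had at most 5 reads and Ifnb1 at most 6 in any library. Of the 20 tested, 15 rose and 2 fell after R837 in TBK1-WT ∆control, beside 30.6% and 32.0% of all genes, with a median of 1.01 log2. Irf7, a factor for type I interferon genes, rose by 1.73 log2 in libraries labelled TBK1-cKD ∆IKKe, 2.46 in TBK1-cKD ∆control, 0.58 in TBK1-WT ∆IKKe and 1.38 in TBK1-WT ∆control. Irf1, a factor that binds Gbp promoters, was at -0.17 ± 0.11 in the libraries labelled TBK1-cKD ∆IKKe and did not pass there (adjusted p = 0.152), against a rise of 1.14 ± 0.11 in TBK1-WT ∆control. Untreated libraries labelled TBK1-cKD ∆IKKe had higher Irf1 than TBK1-WT ∆control, by 1.22 ± 0.11 (adjusted p = 2.91e-08). In those untreated libraries 13 of the 20 were higher and none was lower by edgeR, beside 8.52% and 5.10% of all genes. Socs3, a feedback inhibitor of cytokine receptors, was higher by 2.74 ± 0.14, and Irf7 by 1.41 ± 0.19. After R837 the same comparison had 15 higher and 1, Ifngr1, lower, beside 16.7% and 15.5% of all genes. Untreated TBK1-cKD ∆control had 4 lower and 0 higher, beside 2.65% and 2.40% of all genes, with Irf7 at -1.27 ± 0.19 (adjusted p = 0.000207). The interaction after R837 passed for 12 of the 20, all positive, beside 22.2% of all genes (13.3% higher and 8.90% lower). Its median was 0.40 log2 beside 0.04 for all genes.

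The list of partners held 33 genes for IRGs, inflammasomes, ATG8 conjugation and prenylation, all tested. After R837 in TBK1-WT ∆control 21 rose and 4 fell, beside 30.6% and 32.0% of all genes. Casp4, which encodes mouse caspase-11, rose by 2.15 ± 0.09 log2, Nlrp3, the inflammasome sensor, by 2.48 ± 0.07, and Gsdmd, gasdermin D, by 1.03 ± 0.06. The IRG genes Igtp, Tgtp2 and Iigp1 rose by 1.85 ± 0.15, 1.60 ± 0.26 and 1.41 ± 0.22. In the untreated libraries labelled TBK1-cKD ∆IKKe 13 of the 33 were higher and 1 lower than in TBK1-WT ∆control, beside 8.52% and 5.10% of all genes. After R837 15 were higher and 4 lower, beside 16.7% and 15.5% of all genes, with Nlrp3 at 1.65 ± 0.07 and Casp4 at 0.83 ± 0.09. The 4 lower ones were Pycard, the inflammasome adaptor ASC, at -0.99 ± 0.09, Fntb and Fnta, the subunits of farnesyltransferase, at -0.61 ± 0.11 and -0.295 ± 0.07, and Gabarapl1, an ATG8 family member, at -0.29 ± 0.07. Untreated TBK1-cKD ∆control had 8 lower and 0 higher, beside 2.65% and 2.40% of all genes. The largest of these differences was that of Iigp1, lower by 2.48 ± 0.27 (adjusted p = 7.87e-06, edgeR). Of the prenylation genes, Fntb fell by 0.56 after R837 in TBK1-WT ∆control, Rce1 rose by 0.64, and Fnta, Pggt1b and Icmt did not pass.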

How the data were processed

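RNA was measured in 24 libraries of mouse bone marrow-derived macrophages, 3 in each of 8 groups taken from titles and genotype labels. TruSeq RNA v2 libraries were read from a single end, per the labels' protocols, with separate mice as replicates. Replicate numbers were given in accession order and only name libraries. The kit does not mark strand. Per the submitters' processing notes, reads were aligned with GSNAP to GRCm38. Which tool counted the reads, and on which annotation, is not given in the sources used here. Whole-number counts per Ensembl gene were deposited by the authors, and so were RPKM values with the gene width they used. No column was left unused (0 columns).

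Counts were tested with edgeR 4.0.16 (R 4.3.3): filterByExpr (minimum count 10, total 15), TMM scaling, 1 mean per group over all 24 libraries, the quasi-likelihood F test, and Benjamini-Hochberg adjustment over 14681 genes called at 0.05. The fit left 16 residual degrees of freedom, and the biological coefficient of variation it shared among genes was 0.116. SE is the log2 change over the square root of F. CPM values are TMM-scaled, log2 CPM has an offset of 0.5, and the deposited RPKM values served to compare genes. A nuclear RNA level above 7 log2 CPM was called high. The fit was tested on simulated data. Identifiers without a symbol (233) held 0.0187% of counts. Irgb10 was read as Gm12250, its RefSeq name.

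The alternatives were other scalings (RLE and upper quartile), DESeq2 1.42.0, no count filter, only the libraries of the groups compared, the nuclear RNA level as a term or within 1 level, and leaving out each library. All 8 members were named whatever their values, and other genes came from lists of pathway genes, partners, neighbours and cell markers. The members and lists were chosen with earlier results of these data known. One alternative, without the 2 R837 libraries of high nuclear RNA level, was chosen after seeing the data.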

Additional observations from a re-analysis of the deposited data

Results flagged for a closer look

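Several Gbp genes differed between genotypes in a test of the difference itself, and each is given here with its value on the log2 scale. The response to R837 was larger in TBK1-cKD ∆control than in TBK1-WT ∆control by 1.95 for Gbp5, 1.004 for Gbp3 and 0.89 for Gbp2. None of these passed on the libraries of these groups alone. Against TBK1-WT ∆control the 3 genes stood, in that order, at -1.26, -0.55 and -0.38 untreated and at 0.69, 0.46 and 0.50 after R837. In the libraries labelled TBK1-cKD ∆IKKe the response was larger than in TBK1-WT ∆control by 0.99 for Gbp9, and smaller for Gbp2, at -0.60. Gbp9 rose in the one group and fell in the other. The TBK1 by IKKe interaction after R837 was 1.01 for Gbp2, 1.79 for Gbp3, 3.01 for Gbp4, 1.02 for Gbp5, 2.33 for Gbp6, 2.19 for Gbp7, 2.90 for Gbp8 and 2.04 for Gbp9. Without the 2 R837 libraries of high nuclear RNA level the interaction was 1.35 for Gbp7 and 1.58 for Gbp8.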

How the results depend on the processing

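Over the alternatives, 1816 of 1960 values of single members kept their direction and their side of the threshold, 46 passed only under the alternative, 63 passed no longer, and 35 changed sign, none of them called before or after. No paired analysis was possible because the labels give no replicate numbers, and numbers given in accession order do not pair libraries. For untreated TBK1-cKD ∆control against TBK1-WT ∆control, 2 members were called, against 4 with RLE or upper quartile scaling, 5 with DESeq2, without a count filter or with the nuclear RNA term, 8 on the groups compared or on libraries of high level only, 6 without the 2 R837 libraries of high level, and 0 to 2 when each library was left out. The count over all genes was 742, against 736 and 715 with RLE and upper quartile scaling, 1049 with DESeq2, 667 without a filter, 2042 with the term, 2835, 3012 and 1927 in the fits on the groups compared, on high level and without the 2 libraries, and 393 to 715 with each library left out. After R837 the same pair had 3, against 0 on the groups compared and 1 to 3 with each library left out. The same fits called 1305 and 40 of all genes. The difference of their responses had the same counts, 3, 0 and 1 to 3, with 129 of all genes in the fit on 24 libraries and 17 on the groups compared, and that of the libraries labelled TBK1-cKD ∆IKKe had 2, against 1 to 3 with each library left out. The cause was not tested.

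The sign changes were as follows, as log2 values. In TBK1-cKD ∆control against TBK1-WT ∆control after R837, low level only gave 0.215 for Gbp4, 0.465 for Gbp7 and 0.542 for Gbp8, leaving out the 2 libraries gave 0.201, 0.464 and 0.573, and the term gave 0.363 for Gbp7. With each library left out they ran from -0.494 to 0.208, -0.442 to 0.456 and -1.551 to 0.569. In TBK1-WT ∆IKKe after R837, low level only gave 0.021 for Gbp7 and 0.197 for Gbp8, and leaving out the 2 libraries gave 0.007 for Gbp6, 0.031 for Gbp7 and 0.216 for Gbp8. Their leave-one-out ranges were -0.176 to 0.007, -0.765 to 0.029 and -1.559 to 0.214. Gbp8 in the R837 libraries labelled TBK1-cKD ∆IKKe against TBK1-WT ∆control was at -0.187 on high level only. Gbp9 in the R837 response of TBK1-cKD ∆control was at 0.082 with the term and from -0.389 to 0.001 with each library left out. In the difference of responses, TBK1-cKD ∆control minus TBK1-WT ∆control, Gbp8 was at 0.226 with the term, 1.231 without the 2 libraries and from -0.898 to 1.224 with each left out. For the libraries labelled TBK1-cKD ∆IKKe it was -0.288 for Gbp4 and -0.963 for Gbp8 on high level only and 0.036 for Gbp6 without the 2 libraries, with leave-one-out ranges of -0.212 to 0.052 for Gbp6 and -0.239 to 1.498 for Gbp8. For TBK1-WT ∆IKKe that of Gbp5 ran from -0.402 to 0.061. Upper quartile scaling moved the median R837 response of all genes under the label TBK1-cKD ∆IKKe to -0.18, against -0.07 with TMM. No value exists on 1 nuclear RNA level where a group has no library of it. Depth limits Gbp8 most.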
